A study of Gallus gallus with 3 samples.

Results

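The miR-181 family was followed through its 2 guide strands on the array, gga-miR-181a and gga-miR-181b, of 542 chicken microRNAs (miRNAs) measured in leg muscle of 14-day-old embryos. The members were chosen by probe name, and names ending in an asterisk, which mark passenger strands, were left out. Both members were among the 127 miRNAs bright enough to be tested. miR-181b had been singled out by the study on these same arrays, so its lower level in dwarf embryos is no independent evidence, and the question here was whether miR-181a followed it.

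miRNAs are short RNAs that guide a silencing complex to messenger RNAs, mostly by pairing of the seed, the bases near the start of the miRNA, with sites in the 3′ untranslated region. In mammals miR-181 is abundant in developing lymphocytes, where it tunes signalling by the antigen receptor. It also appears in mouse muscle cells that are starting to differentiate, where it acts on the homeobox factor Hoxa11, a repressor of the differentiation programme. Members that share a seed are predicted to share many of their targets.

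The mature sequences of the members, as the array files give them, are shown because both the shared seed and the few differing bases bear on how far the probes measure separate molecules. Capitals mark the seed, bases 2 to 8.
miR-181a: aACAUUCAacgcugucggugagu
miR-181b: aACAUUCAuugcugucgguggg
Over the first 22 bases, counted from the 5′ end of miR-181a, the members had 19 bases in common and differed by A9U, C10U and A21G, where the first letter is the base of miR-181a. miR-181a carries 1 more base at its 3′ end. No other of the 542 array sequences had this seed at the same place, so the members made up 0.369% of the array. In the RefSeq gene table of assembly GRCg7b each member comes from a pair of genes. MIR181A1 and MIR181B1 lie side by side within non-coding RNA genes, between NR5A2, a nuclear receptor, and PTPRC, which encodes the leukocyte surface phosphatase CD45. MIR181A2 and MIR181B2 lie side by side inside NR6A1, another nuclear receptor. The array cannot tell the copies of a member apart.

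The strains compared were dwarf and normal recessive White Rock chickens, and the dwarf strain lacks part of GHR, the gene of the growth hormone receptor. Leg muscle of female embryos, 9 for each strain, was freed of skin and bone and combined into 3 pools per strain, each of 3 embryos. A dwarf pool and a normal pool were labelled with different dyes and hybridised together, once each, on 3 arrays. Cy5 marked the dwarf pool on arrays 1 and 3, and on array 2 the dyes were exchanged. Each array counts as a single replicate of the ratio (n = 3), so precision is limited by the number of arrays. Pooling hides the spread between embryos, and in whole tissue fewer cells of a type cannot be told apart from less RNA per cell.

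The muscle label was checked against marker miRNAs. Of 7 muscle miRNAs, 6 were tested, and the summed signal of the list ran from 30235 to 69817 in normal pools and from 14199 to 46692 in dwarf pools. Summed signals in this paragraph were taken before normalization, so strain and dye are mixed in these ranges. The median signal of all tested miRNAs was 938, 182 and 2600 in normal pools on arrays 1, 2 and 3. In dwarf pools it was 301, 599 and 642, with the Cy5 pool the dimmer one on each array. The nerve markers miR-124a, miR-124b and miR-9 stayed at or under a signal of 32, the detection limit used by the study, in every pool, and so did miR-140, the only listed cartilage marker. Other probes linked to cartilage, looked up after the values were seen, were bright. The opposite strand miR-140* had a mean signal of 2833 and log2 ratios of dwarf over normal of -3.48, 2.13 and -2.05 on arrays 1, 2 and 3. Its sign turned on array 2, where the dyes were exchanged, so the pool labelled with Cy3 was the higher one on each array. Whether its signal reflects cartilage RNA was not tested. miR-455-3p, known from cartilage in mammals, had a mean signal of 1201 and log2 ratios of -1.25, -0.24 and -1.24. In limma its unadjusted p was 0.0298 and its adjusted p 0.324. The other arm, miR-455-5p, had a mean signal of 413 and log2 ratios of -0.84, 0.21 and -1.09, with a mean of -0.57, so it was higher in the dwarf pool on array 2. Cartilage RNA was thus not shown to be absent. miR-455-3p lay below 0 on all 3 arrays as both members did, where 24 of the 127 tested miRNAs, or 18.9%, were. The part of cartilage RNA in the ratios of the members was not tested. Of the skin and blood markers none passed an adjusted p of 0.05 in limma, and 5 had an unadjusted p under 0.05, all higher in dwarf pools. They were 3 of the 6 tested epithelial miRNAs, the 1 tested erythroid miRNA and 1 of the 4 tested leukocyte miRNAs. Of all 127 tested miRNAs 14, or 11%, had an unadjusted p under 0.05 in limma, 7 of them higher in dwarf pools. The 6 tested epithelial miRNAs, of 7 listed, all had a mean ratio above 0, with a median log2 ratio of dwarf over normal of 1.56, and their summed signal ran from 276 to 19574 in normal pools and from 28207 to 50578 in dwarf pools. Of 7 leukocyte miRNAs 4 were tested, with a median log2 ratio of 0.54, a summed signal from 322 to 5378 in normal pools and from 1806 to 2945 in dwarf pools, and miR-142-3p, miR-142-5p and miR-155 too dim to test. Within the epithelial list the mean ratio ran from 0.65 for miR-205b to 3.38 for miR-203, and within the leukocyte list from 0.0085 for miR-223 to 1.23 for miR-146a. The erythroid miR-451 had a mean log2 ratio of 1.28, and the liver miR-122 one of -0.09. The medians of the epithelial and leukocyte lists and miR-451 stayed above 0 under every scaling tried. Of the 4 leukocyte miRNAs, however, 2 were below 0 without normalization and 1 was in the ratios deposited by the authors. Both members of the miR-181 family lay below 0, and the part of these other cell types in their ratios was not tested. The number of miRNAs over the limit of 32 ran from 90 to 142 in normal pools and from 101 to 124 in dwarf pools, and the lowest count was in the normal pool of array 2, labelled with Cy5.

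miR-181a gave a clear signal in all 6 pools. Signals here are mean intensities of 6 spots after subtraction of the median empty spot of the channel, with the SD over spots, before any normalization. On array 1 miR-181a read 4867 ± 274 in the normal pool (Cy3) and 1125 ± 150 in the dwarf pool (Cy5). On array 2 it read 2308 ± 259 in the normal pool (Cy5) and 4076 ± 474 in the dwarf pool (Cy3). On array 3 it read 7565 ± 588 in the normal pool (Cy3) and 2466 ± 226 in the dwarf pool (Cy5). The pool labelled with Cy3 was the brighter one on each array, so the raw signal of the dwarf pool was lower on arrays 1 and 3 and higher on array 2, and the raw ranges of the strains overlapped.

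miR-181b showed the same order of pools within each array. On array 1 it read 8464 ± 502 in the normal pool and 2633 ± 277 in the dwarf pool. On array 2 it read 5467 ± 660 in the normal pool and 6219 ± 717 in the dwarf pool. On array 3 it read 13931 ± 977 in the normal pool and 6220 ± 632 in the dwarf pool. The spots of one pool stayed close together for both members, with coefficients of variation from 5.63% to 13.3% for miR-181a and from 5.93% to 12.1% for miR-181b. All 6 spots of each member were lower in the dwarf pool on arrays 1 and 3 and higher on array 2 at this stage.

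**Figure D1:**
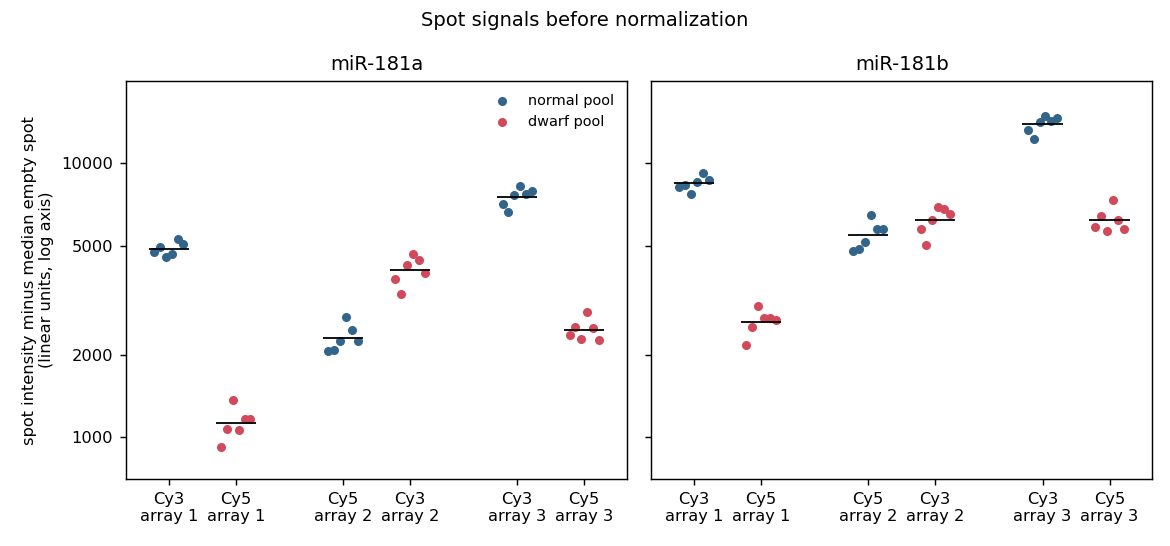
Each point is 1 of the 6 spots of miR-181a (left) or miR-181b (right), as intensity minus the median empty spot on a log axis, by array and dye, with normal pools in blue and dwarf pools in red and the mean as a line. The Cy3 pool is the brighter one on all 3 arrays, whichever strain it holds.

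Normalization set the sign on array 2, where the median of all tested miRNAs was 0.88 before it, above both members. On arrays 1 and 3 that median was -0.96 and -1.48. Loess, a smooth curve of ratio against brightness fitted on the miRNA spots of each array, was subtracted to remove the dye difference. For miR-181a the log2 ratio of dwarf over normal went from -2.06 to -1.10 on array 1, from 0.81 to -0.13 on array 2 and from -1.60 to -0.29 on array 3. For miR-181b it went from -1.67 to -0.77 on array 1, from 0.19 to -0.66 on array 2 and from -1.16 to -0.03 on array 3. After loess both members were lower in the dwarf pool on 3 of 3 arrays, where 24 of the 127 tested miRNAs, or 18.9%, were. The median of all tested miRNAs was then -0.03, 0.0043 and -0.13 on arrays 1, 2 and 3. Against that median miR-181a was lower on each array, but miR-181b lay above it on array 3.

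The size of the ratio differed between arrays more than between spots. All 6 spots of miR-181a lay below 0 on each array, from -1.32 to -0.73 on array 1, from -0.29 to -0.04 on array 2 and from -0.48 to -0.07 on array 3. For miR-181b all 6 spots lay below 0 on arrays 1 and 2, from -0.99 to -0.45 and from -0.82 to -0.58. On array 3 only 4 of the 6 spots did, and they ran from -0.21 to 0.21. Spots of one array share a hybridisation and are not replicates. The spots of a member lie in the upper and the lower part of the array, 3 in each, and the means of these parts differed by no more than the spots did. The widest gap for miR-181a was on array 3, with -0.25 in the upper and -0.34 in the lower part. For miR-181b it was on array 3 as well, with 0.00399 and -0.06. The SD over arrays was 0.52 for miR-181a and 0.40 for miR-181b, against a median of 0.33 over the tested miRNAs.

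Neither member passed the test between the strains. The mean log2 ratio of miR-181a was -0.51 (SE 0.25), with a 95% interval from -1.20 to 0.18, an unadjusted p of 0.110 and an adjusted p of 0.498 in the limma fit over all tested miRNAs. That of miR-181b was -0.49 (SE 0.20), with an interval from -1.06 to 0.09, an unadjusted p of 0.0777 and a limma adjusted p of 0.413. As folds of normal over dwarf these are 1.42 for miR-181a, with an interval from 0.880 to 2.31, and 1.40 for miR-181b, with an interval from 0.941 to 2.09. The intervals hold no change as well as a signal more than doubled in normal pools. limma called 0 of 127 miRNAs, or 0%, at an adjusted p of 0.05. At an unadjusted p under 0.05 it listed 14, or 11%, of which 7 were lower in dwarf pools, or 5.51%, and neither member was among them. The methods' t-test on normalised signals gave 1 miRNA at its stated threshold of 0.01 and 0 after Benjamini-Hochberg adjustment. Ordered by mean ratio from the lowest, miR-181a came 12th and miR-181b 15th of the 127.

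The normalised signals show the overlap directly. For miR-181a normal pools averaged 3888 ± 919 and dwarf pools 2754 ± 845 (SD, n = 3 each). The strains overlapped, since the lowest normal pool was at 2885 and the highest dwarf pool at 3725. For miR-181b normal pools averaged 7732 ± 1397 and dwarf pools 5473 ± 587 (SD, n = 3 each). Here the strains did not overlap, but the gap was narrow, between 6021 in the highest dwarf pool and 6145 in the lowest normal pool, and both of these pools were on array 3. Of the tested miRNAs 6, or 4.72%, had every dwarf pool below every normal pool.

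**Figure D2:**
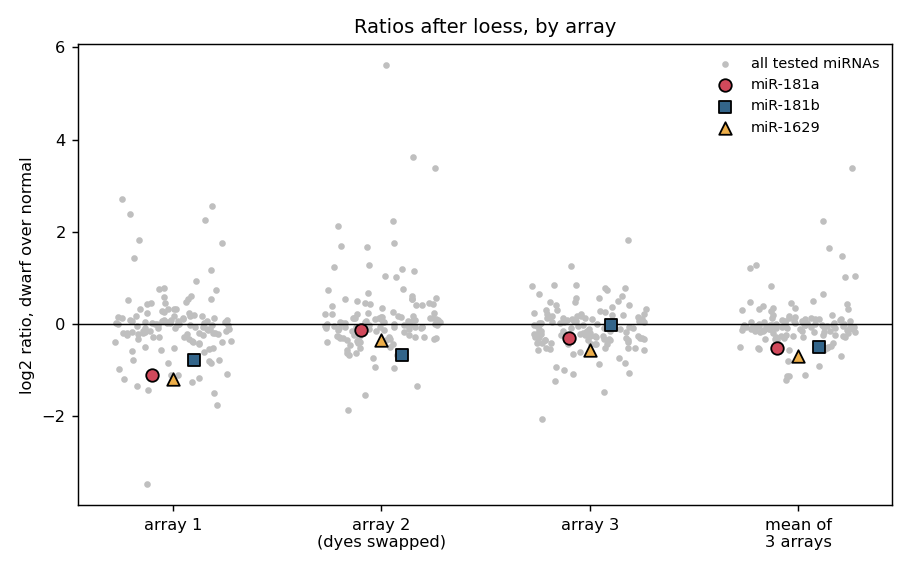
The log2 ratio of dwarf over normal after loess is shown on each array and as the mean of the 3 arrays, with the 127 tested miRNAs in grey and miR-181a (circle), miR-181b (square) and miR-1629 (triangle) marked. miR-181a has the lowest of its own 3 ratios on array 1, at -1.10, where miR-1629 lies lower, at -1.19. On array 2 miR-181a lies close to 0, and on array 3 miR-181b does.

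Whether miR-181a followed miR-181b was asked from the difference of their ratios within each array. How far the probe of each member also reads the other member was not tested. The mean difference, miR-181a minus miR-181b, was -0.02 ± 0.48 (SD, n = 3) on the log2 scale, with a two-sided exact sign-flip permutation p of 1, where the lowest p within reach of 3 arrays is 0.25. On average the members therefore had nearly the same ratio, but an SD this wide over 3 arrays cannot show that the ratios were equal. The mean also does not balance the dyes, since they were exchanged on array 2 alone. With a dye term in the fit the mean ratio was -0.416 for miR-181a and -0.531 for miR-181b. On the single arrays the members did not have the same ratio. The difference was -0.33 on array 1, 0.53 on array 2 and -0.26 on array 3.

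These differences were precise within an array. The spots of miR-181b lie 2 rows from those of miR-181a in the same columns, which gives 6 neighbouring pairs per array. miR-181a had the lower ratio in 6 of 6 pairs on array 1, in 0 of 6 on array 2 and in 6 of 6 on array 3. The SD over pairs was 0.03 on each array, while the ratios of single spots had SDs from 0.09 to 0.20 for miR-181a and from 0.10 to 0.18 for miR-181b. Neighbouring spots of the members therefore moved together within an array, and the gap between the members changed from array to array.

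Array 2 is the array with the dyes exchanged, so the difference was also taken as Cy5 over Cy3. In that direction it had one sign on 3 of 3 arrays, at -0.33, -0.53 and -0.26, with a mean of -0.37 ± 0.14 (SD, n = 3) and a two-sided exact sign-flip permutation p of 0.25, the smallest that 3 arrays can give. This look at the dye was chosen after the values were seen. In a fit with a strain term and a dye term the dye part of the difference was -0.41 and the strain part 0.11. As ratios of Cy5 over Cy3 the members themselves were at -0.42 (SE 0.29, limma adjusted p 0.785) for miR-181a and -0.05 (SE 0.33, limma adjusted p 0.982) for miR-181b. These means have no strain term. They hold part of the strain ratio as well, because the dyes were exchanged on array 2 alone. limma called 0 of the 127 miRNAs for the dye, or 0%, and at an unadjusted p under 0.05 it listed 12, or 9.45%, with neither member among them. A single array with the dyes exchanged cannot separate the dye from whatever else was particular to array 2.

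**Figure D3:**
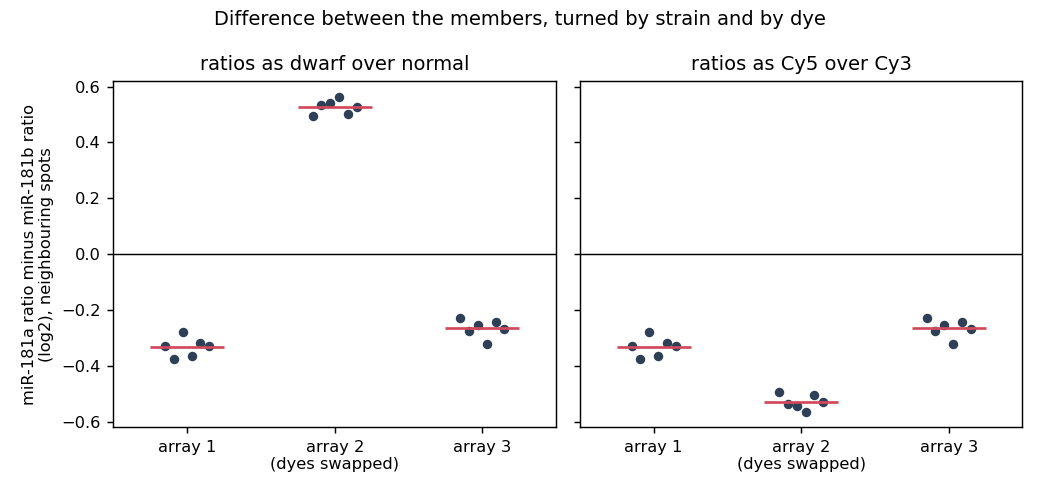
Each point is the log2 ratio of a miR-181a spot minus that of its neighbouring miR-181b spot, with 6 pairs per array and their mean as a line, taken as dwarf over normal (left) and as Cy5 over Cy3 (right). Taken by strain the difference changes sign on array 2, at 0.53, and taken by dye it lies below 0 on all 3 arrays.

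The passenger strand gave almost no signal. gga-miR-181a*, the strand opposite miR-181a in the hairpin, is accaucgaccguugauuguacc on the array. Its mean signal ran from -1.47 to 21.3 in normal pools and from -1.67 to 11.9 in dwarf pools, so it stayed under 32 in every pool and was not tested.

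Another probe came close to miR-181b in sequence. miR-1629 begins with the 13 bases that end miR-181b, positions 10 to 22, which are in capitals here, and no other array sequence shared a longer stretch with either member. The members themselves share an unbroken stretch of at most 10 bases.
miR-1629: UGCUGUCGGUGGGuuuguucu
The gene of miR-1629 lies beside RUSC1 in the same gene table, away from both miR-181 pairs. Its probe was bright, with signals of 1883, 999.9 and 6570 in normal and of 352, 1646 and 1692 in dwarf muscle on arrays 1, 2 and 3. After loess its log2 ratios were -1.19, -0.35 and -0.56, lower in the dwarf pool on 3 of 3 arrays, with a mean of -0.70 (SE 0.21, limma adjusted p 0.324) and an unadjusted p of 0.0332. How much of this signal came from miR-181b was not tested. The probe of miR-1782, next in length of shared stretch with 10 bases, stayed under 32 in every pool, from -3.20 to 9.42.

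The miRNAs with ratios most like those of the members were sought by the Euclidean distance over the 3 arrays. The nearest to miR-181a were miR-148a at a distance of 0.29, miR-1629 at 0.36 and miR-2954 at 0.36. The nearest to miR-181b were miR-2127 at 0.30, miR-2954 at 0.40 and miR-1416 at 0.51. The members were not each other's nearest neighbours, since each came 11th for the other, at a distance of 0.68. miR-2954, a miRNA known in birds for its higher level in males, was near to both, with log2 ratios of -0.81, -0.34 and -0.26 on arrays 1, 2 and 3. miR-148a had -0.97, -0.17 and -0.54, and miR-2127 had -0.55, -0.49 and -0.16. These 3 were lower in the dwarf pool on 3 of 3 arrays, as were 24 of the 127 tested miRNAs, or 18.9%. They were picked for ratios near those of the members, so this direction follows largely from the choice and is no separate evidence. None passed the test, each with a limma adjusted p of 0.362. miR-1416 was higher in the dwarf pool on array 3, at 0.27.

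Other regulators of muscle cell differentiation did not share one direction. Of 12 miRNAs listed beside miR-181 for such a role in mammals, 8 were tested, and limma called 0 of them, in either direction, against 0% of all tested miRNAs. Of the 8, 4 had a mean ratio below 0, where 80 of the 127 did. On all arrays 3 of the 8 were lower in the dwarf pool, where 24 of the 127, or 18.9%, were. The median log2 ratio of the 8 was -0.09, beside -0.05 over all tested miRNAs. When arrays were centred on the median without loess it turned to 0.02, and the median over all tested miRNAs was then 0.02 too. The lowest was miR-148a at -0.56 (SE 0.20) and the highest miR-27b, which acts on the muscle stem cell factor Pax3 in mouse, at 0.34 (SE 0.19). The muscle-specific list had 5 of its 6 tested members below 0, with a median of -0.18 (3 of 6 and -0.04 when centred on the median), from miR-133b at -0.34 (SE 0.37) to miR-499 at 0.48 (SE 0.48). Its array medians were -0.84, 0.42 and -0.25, and on array 2 the list was split, with miR-206 at -0.95 and miR-1a at -0.14 and the other 4 above 0. In this list miR-133a, miR-133b and miR-133c moved together, at -1.08, -1.18 and -1.11 on array 1 and 0.43, 0.49 and 0.42 on array 2. Whether these probes measure separate molecules was not tested.

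Of 18 other ways of processing, 7 change only the test, the set of tested miRNAs or the brightness scale and leave the mean ratios as they are by construction. In the other 11 both mean ratios were below 0, and neither member passed an adjusted p of 0.05 in any of the 18. The ratio of miR-181a ran from -0.95 without normalization, where the median of all tested miRNAs was -0.50, to -0.21 without array 1. That of miR-181b ran from -0.88 without normalization to -0.35 without array 1. Without array 2 the ratio of miR-181a was -0.70 and that of miR-181b -0.40, but arrays 1 and 3 carry the dyes the same way, so strain and dye cannot be told apart there. Without array 3 they were -0.62 and -0.72. The unadjusted p of miR-181b was under 0.05 in a pair of these alternatives, 0.0198 without array 3 and 0.0453 in the authors' table of ratios, and that of miR-181a in none (limma). On array 3 the ratio of miR-181b changed sign to 0.34 when the array was centred on the median without loess. In the deposited table of ratios miR-181a was at -0.89, -0.33 and -0.24 and miR-181b at -0.77, -0.67 and -0.21 on arrays 1, 2 and 3.

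**Figure D4:**
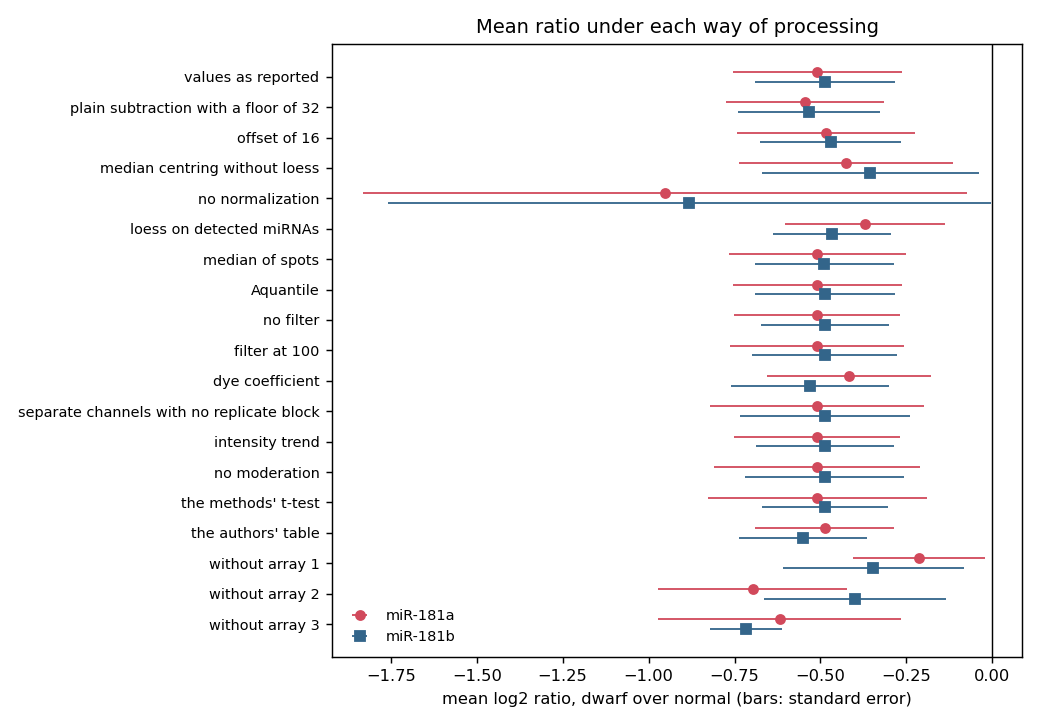
Mean log2 ratio of dwarf over normal for miR-181a (red circles) and miR-181b (blue squares) under each way of processing, with the standard error of that fit as bars. All means lie below 0, 7 of the alternatives repeat the reported mean by construction, the widest bars belong to the values without normalization, and the ratio of miR-181a shrinks to -0.21 without array 1.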

How the data were processed

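The 3 two-colour arrays were made by LC Sciences on miRBase and scanned on a GenePix instrument, per the study's methods. As deposited, the scanner values are intensities of single spots on a linear scale with no background subtracted, and commas that group their digits were taken out. A second deposited table holds the authors' log2 ratio of each miRNA, made by background subtraction and LOWESS. The sample titles write them as normal over dwarf, but they follow dwarf over normal on the 3 arrays, with Pearson r across miRNAs of 0.965, 0.860 and 0.912 against the ratios used here. Their column medians were 0.04, 0.03 and -0.13, and how they were centred stays unknown.

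Each array has 3968 spots, 3252 of them miRNA spots and 424 empty. The files hold no background per spot, so normexp was fitted to the intensities of all spots, and 50 was added. Loess followed in each array, with controls given weight 0, and the 6 spots were averaged. This addition shrinks the ratios of dim miRNAs. miRNAs with a mean signal over 32 in the 6 channels were tested, 127 of 542, with limma 3.58.1 in R 4.3.3 (lmFit and eBayes, 2 residual and 1.82 prior degrees of freedom) and Benjamini-Hochberg adjustment at 0.05. Normalised signals were taken after loess and Aquantile, include the offset, and were averaged over spots on the log2 scale. The fit was tested on simulated data. The pools of one array share a hybridisation, and their deviations from the strain means had correlations of 0.613, 0.234 and 0.307, so the ratio within an array was used.

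The members and the lists were chosen with earlier results of these data known. Named miRNAs were the members, their passenger strand, the 3 nearest to each by ratio, and the lowest and highest of each list. miR-1629 and miR-1782 are also named for their sequence, which was chosen after the values were seen. The alternatives changed the background (empty spots subtracted, values held at 32 or above; offset 16), the normalization (none, median, detected miRNAs alone, Aquantile), the spot summary (median), the filter (100 or absent), the model (dye term, channels apart, intensity trend, unmoderated variance, the t-test of the methods), the source (deposited ratios) and the arrays (each left out in turn). The labels and the study's methods name different RNA extraction kits. Material from older birds was not analysed here.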

Additional observations from a re-analysis of the deposited data

How the results depend on the processing

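The mean ratios of miR-181a, miR-181b, miR-1629, miR-148a, miR-2954 and miR-2127 were below 0 in the 11 alternatives that could move them (7 of the 18 leave the mean as it is) and short of an adjusted p of 0.05 in all 18. The adjusted p ran from 0.325 to 0.993 for miR-181a and from 0.288 to 0.995 for miR-181b. Leaving out each array gave -0.70 to -0.21 for miR-181a and -0.72 to -0.35 for miR-181b. miR-1416 changed sign to 0.011 without array 1. The difference between the members turned to 0.095 when loess used detected miRNAs, to 0.063 in the deposited ratios and to 0.11 with a dye term, and ran from -0.30 to 0.13 without each array, where the sign was negative only without array 2. All of these lie within its SD over arrays of 0.48. For the means without each array this holds by arithmetic, with 3 arrays and a mean this near 0, and shows no stability. The count of miRNAs past the adjusted threshold was 3 with a dye term and 2 with median centring, and the t-test of the methods listed 1 at 0.01 unadjusted. Leaving out any array gave 0. The 14 of 127 miRNAs with an unadjusted p under 0.05 became 31 with no filter, where all 542 miRNAs were tested. Of the 127 they became 6 with no moderation, 3 without normalization, 3 in the t-test of the methods and 4 without array 1. The dye ratio of miR-181a passed at -1.49 and that of miR-181b at -1.01 without normalization. This offset was not particular to the members. Without normalization the median log2 ratio of dwarf over normal of all tested miRNAs was -0.96, 0.88 and -1.48 on arrays 1, 2 and 3. The Cy5 pool was thus the lower one at the median on each array. How many of all tested miRNAs passed for the dye in this setting was not counted. Loess takes out the dye trend shared by the miRNA spots of an array. After it the mean ratios of Cy5 over Cy3 were -0.42 for miR-181a and -0.05 for miR-181b. These means still hold part of the strain ratio, since Cy5 marked the dwarf pool on arrays 1 and 3 and the normal pool on array 2 alone. The dye ratio of miR-181b changed sign to 0.12 with median centring and ran from -0.40 to 0.32 without each array, and that of miR-181a ran from -0.70 to -0.08. The ends at -0.40 and -0.70 are the strain ratios without array 2, since the remaining arrays share a dye orientation and the contrasts are then the same. The median of the differentiation list was -0.51 without normalization, where the median of all tested miRNAs was -0.50, and ran from -0.12 to -0.08 without each array. Separate channels with no replicate block left the ratios at -0.51 and -0.49 by construction. Without the pairing the count at an adjusted p of 0.05 was 0, as with it, the count at an unadjusted p under 0.05 went from 14 to 10, and the unadjusted p of miR-1629 from 0.0332 to 0.0982. The cause of these changes was not tested where not stated. Signal over background limits the passenger strand, which had only values near empty spots.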
